A study of Homo sapiens with 6 samples.

Results

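The 40 genes described here encode the glucose and lactate transporters, the enzymes of glycolysis and lactate fermentation, the regulators that set flux between them, and the hypoxia-inducible factor (HIF) system with its classical targets. They were taken by gene symbol from the deposited table and make up 40 of its 61806 genes. By role they comprise 2 glucose transporters, 17 enzymes, 2 lactate transporters, 3 flux regulators, 2 HIF subunits, 2 prolyl hydroxylases and 12 hypoxia-induced targets. Messenger RNA of MDA-MB-231, an established human triple-negative breast cancer cell line, was sequenced in 6 libraries, 2 for each of 3 lines. The line titled shNC is the study's control, and the lines titled shHMGA2-1 and shHMGA2-2 each carried a different lentiviral short hairpin RNA against HMGA2, an architectural chromatin protein. All lines were grown in serum-containing medium in a humidified incubator, and no hypoxic treatment is given for them. The methods describe each stable knockdown line as the expansion of 1 puromycin-selected clone and do not say so for shNC, so an effect of the knockdown and a difference between clones cannot be told apart. Library names mark the controls as wild type and carry SH2 for the samples titled shHMGA2-1, and the titles were followed.

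Glycolysis splits glucose into pyruvate. Lactate dehydrogenase turns pyruvate into lactate, which leaves the cell through monocarboxylate transporters. In the mitochondria, pyruvate dehydrogenase instead turns pyruvate into acetyl-CoA unless a pyruvate dehydrogenase kinase (PDK) blocks it. When oxygen is low, the prolyl hydroxylases of the EGLN family stop marking HIF alpha subunits for degradation. HIF-1alpha (HIF1A) and HIF-2alpha (EPAS1) then pair with ARNT at the hypoxia response element and raise glycolytic genes, PDK1 and targets such as BNIP3, ADM and CA9. Since HIF alpha is controlled mainly at the protein level, mRNA of HIF1A or EPAS1 does not measure HIF activity. Many breast cancer lines run glycolysis strongly in normal oxygen.

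Libraries held 16461178 to 17167293 counts, and 6.74% to 7.86% of them were mitochondrial. HMGA2 itself had 131 and 133 CPM (counts relative to the TMM-scaled library total) in shNC, 49.4 and 58.2 in shHMGA2-1, then 25.7 and 27.6 in shHMGA2-2, and was lower in both knockdown lines, with log2 fold changes of -1.29 (SE 0.09) in shHMGA2-1 and -2.31 (SE 0.09) in shHMGA2-2. The mesenchymal markers VIM, CD44, AXL and CAV1 were high, at 418 and 432 FPKM for VIM in shNC. Of 7 luminal or epithelial genes, ESR1, PGR and CDH1 lay at 0 to 0.05 FPKM in all 6 libraries. Markers of leukocytes, macrophages, endothelium and fibroblasts (PTPRC, CD68, PECAM1, COL1A1) summed to 0.55 to 0.86 FPKM in shNC, 1.3 to 1.82 in shHMGA2-1 and 0.62 to 0.67 in shHMGA2-2, and PTPRC was listed at 0 FPKM in 5 libraries. The 7 luminal or epithelial genes summed to 56.2 to 57.8 FPKM in shNC, 55.0 to 62.8 in shHMGA2-1 and 74.6 to 79.9 in shHMGA2-2. Nearly all of that sum came from the others of the list, ERBB2, EPCAM, KRT8 and KRT18, so the list was not silent as a whole. The part of these markers in the results was not tested. The chi-square of gene counts over its degrees of freedom was 2.03 to 6.21 between libraries of a line and 31.2 to 85.6 between lines, so no library repeated another. Nothing in the labels says that libraries of a line came from separate cultures, so p-values measure only the spread between these samples, which may be technical. In bulk RNA, fewer expressing cells and less RNA per cell cannot be told apart.

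The genes covered a wide range of levels in the control line. Levels between genes are given as FPKM, which scales counts by exonic length and library total. FPKM carries no TMM factor, and these factors ran from 0.958 in shNC replicate 2 to 1.05 in shHMGA2-2 replicate 2. Beside shNC, FPKM and its sums therefore stand relatively higher in both knockdown lines than CPM does. In shNC, 7 of the 40 genes averaged at least 100 FPKM, 16 lay between 10 and 100, 13 between 1 and 10, and 4 under 1. GAPDH, the glyceraldehyde phosphate dehydrogenase, was highest with 910 ± 13.7 FPKM (SD, n = 2) and held rank 20 among all genes of the table. ENO1 (345 ± 6.87), LDHA (297 ± 4.43), PKM (204 ± 4.27), PGAM1 (200 ± 1.55), TPI1 (164 ± 2.83) and HIF1A (157 ± 2.41) followed. PKM and PGAM1 did not differ beyond the spread of their libraries. The lowest were EGLN3, CA9, SLC16A1 and ANKRD37. CA9, the membrane carbonic anhydrase used as a hypoxia marker, was counted 3 and 7 times in the shNC libraries, 0 and 1 times in shHMGA2-1 and 3 times in each shHMGA2-2 library, and was too low to be tested. The 40 genes together took 1.28% and 1.27% of the counts in shNC, 1.60% and 1.53% in shHMGA2-1, compared with 1.59% and 1.64% in shHMGA2-2.

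**Figure D1:**
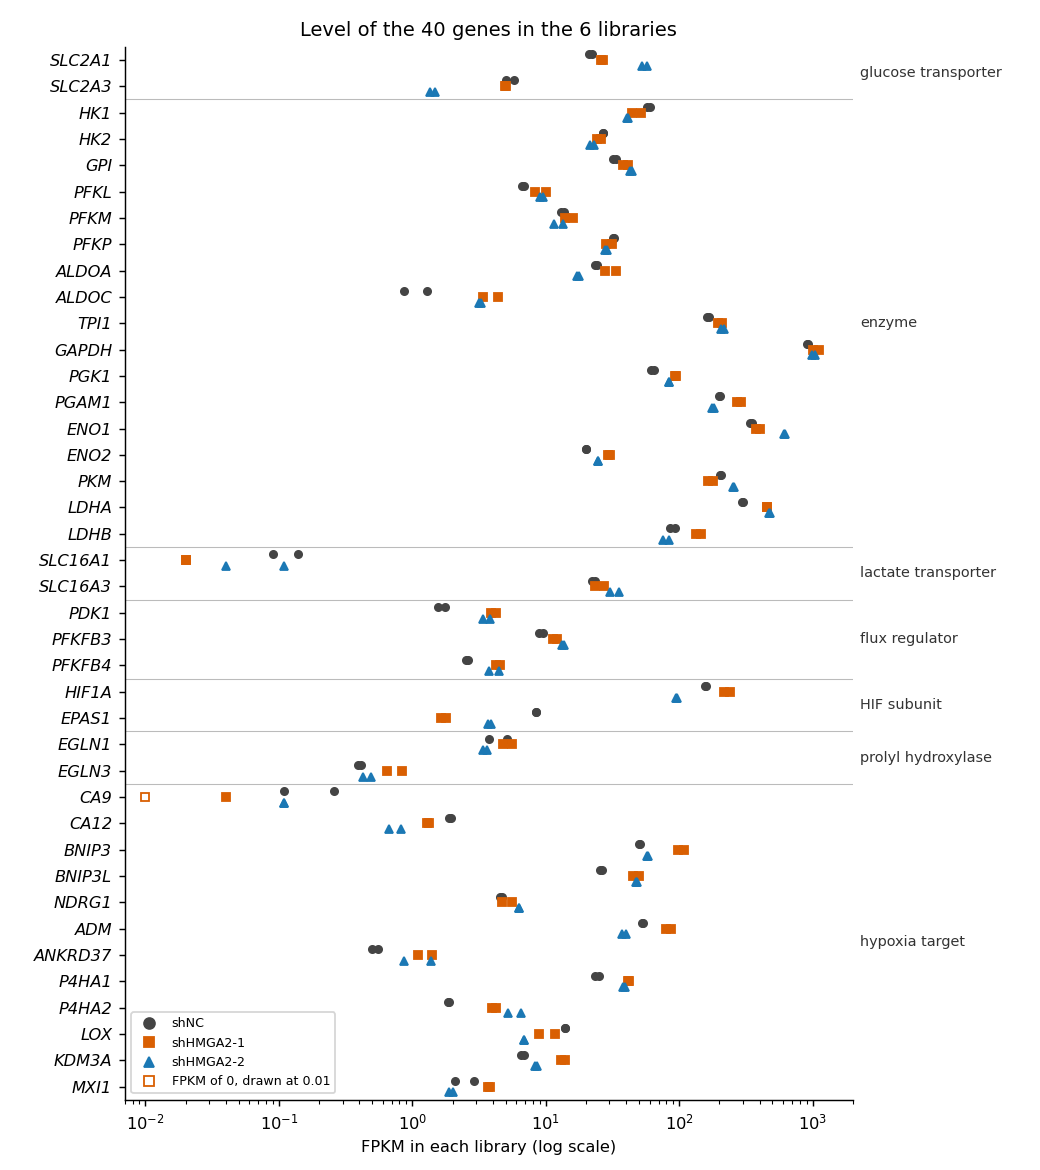
FPKM of each of the 40 genes (rows, grouped by role) in each of the 6 libraries on a log axis, with circles for shNC, squares for shHMGA2-1 and triangles for shHMGA2-2. Levels run from 0 for CA9 in 1 shHMGA2-1 library to 1063 on average for GAPDH in that line, and SLC2A1, SLC2A3, ALDOC, PDK1, HIF1A, EPAS1 and P4HA2 show lines standing clearly apart.

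Because HIF reads a short core, the promoters of 5 of the 40 genes are printed as examples of windows with several, few or no copies of that core: ALDOC, PDK1, EPAS1, BNIP3 and P4HA2. They were chosen after their values were seen and are not a ranking by size of change. Each run is the 250 bases before a RefSeq start site, in gene direction (GRCh38.p14). Capitals mark the letters ACGTG or GCGTG read on either strand (CACGT or CACGC on the printed strand), with CACGTG counted once.
ALDOC, minus strand, chr17:28576896-28577145: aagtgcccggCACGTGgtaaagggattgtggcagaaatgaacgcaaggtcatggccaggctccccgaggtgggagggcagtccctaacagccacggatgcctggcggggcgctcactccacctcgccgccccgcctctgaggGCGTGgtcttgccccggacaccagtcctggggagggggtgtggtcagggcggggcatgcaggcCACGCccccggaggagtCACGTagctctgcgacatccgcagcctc
PDK1, plus strand, upstream start, chr2:172555123-172555372: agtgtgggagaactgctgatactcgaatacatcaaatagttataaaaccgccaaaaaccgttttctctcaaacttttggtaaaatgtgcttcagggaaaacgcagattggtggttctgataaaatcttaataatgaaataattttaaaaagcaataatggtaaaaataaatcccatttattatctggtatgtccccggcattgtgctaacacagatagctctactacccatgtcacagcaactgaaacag
PDK1, plus strand, downstream start, chr2:172555840-172556089: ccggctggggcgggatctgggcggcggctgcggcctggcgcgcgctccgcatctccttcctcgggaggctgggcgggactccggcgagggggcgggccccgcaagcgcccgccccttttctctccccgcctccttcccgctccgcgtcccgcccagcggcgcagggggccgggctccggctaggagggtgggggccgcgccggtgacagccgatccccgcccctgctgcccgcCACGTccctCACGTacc
EPAS1, plus strand, chr2:46297157-46297406: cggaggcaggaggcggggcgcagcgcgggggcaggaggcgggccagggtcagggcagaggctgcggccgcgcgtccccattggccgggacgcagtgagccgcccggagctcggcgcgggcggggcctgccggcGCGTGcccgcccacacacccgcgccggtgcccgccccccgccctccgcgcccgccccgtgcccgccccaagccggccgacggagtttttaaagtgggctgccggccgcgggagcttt
BNIP3, minus strand, chr10:131981924-131982173: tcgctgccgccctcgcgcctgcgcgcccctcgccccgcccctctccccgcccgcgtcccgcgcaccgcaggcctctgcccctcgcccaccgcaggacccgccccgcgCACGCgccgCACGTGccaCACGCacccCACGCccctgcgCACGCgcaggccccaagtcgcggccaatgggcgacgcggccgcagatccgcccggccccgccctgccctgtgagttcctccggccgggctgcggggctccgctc
P4HA2, minus strand, chr5:132227092-132227341: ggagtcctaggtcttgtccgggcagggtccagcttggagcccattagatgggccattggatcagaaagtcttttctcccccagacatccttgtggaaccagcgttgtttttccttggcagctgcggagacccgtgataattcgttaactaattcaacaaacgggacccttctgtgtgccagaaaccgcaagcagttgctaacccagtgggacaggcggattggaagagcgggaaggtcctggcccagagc
The core stood at 5 places for BNIP3, 4 for ALDOC, 2 for PDK1 (both in the window of the downstream start), 1 for EPAS1 and 0 for P4HA2. Over the RefSeq table, 43.2% of 35116 windows held it at least once and 5.56% at 3 places or more. Of the 68 windows of the genes studied here, which came from 36 of the 40 genes, 61.8% held it and 13.2% held it at 3 places or more. A match of letters is not a site of binding, and the window of P4HA2 shows only that these letters are not in it.

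Compared with shNC, most of the 39 tested genes differed in each knockdown line. A gene was called when its adjusted p was under 0.05 in the quasi-likelihood test of edgeR, after Benjamini-Hochberg correction across the 16110 tested genes. In shHMGA2-1, 25 genes were higher (64.1% of the 39, against 15.8% of all tested genes) and 7 were lower (17.9%, against 17.7%). A change of at least 2-fold was called higher for 4 (10.3%, against 4.89%), namely ALDOC, PDK1, ANKRD37 and P4HA2, and lower for 2 (5.13%, against 3.59%), namely SLC16A1 and EPAS1. The median log2 fold change was 0.29 over the 39 genes and 0.01 over all tested genes. The 25 higher calls fell to 16 without shNC replicate 1, when SLC2A1, GPI, ALDOA, TPI1, GAPDH, PFKFB3, EGLN3, ANKRD37 and MXI1 were no longer called.

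In shHMGA2-2, 20 genes were higher (51.3%, against 29.5% of all tested genes) and 15 were lower (38.5%, against 29.2%). At least 2-fold higher were SLC2A1, ALDOC and P4HA2 (7.69%, against 11.7%), and at least 2-fold lower were SLC2A3, EPAS1, CA12 and LOX (10.3%, against 9.65%), so the 2-fold shares lay near or under the background. The median was 0.17 over the 39 genes and 0.03 over all tested genes. With library totals in place of TMM scaling, the split over all genes moved from 4759 higher and 4707 lower to 5820 higher and 3847 lower, and in shHMGA2-1 from 2546 and 2844 to 3187 and 2248. That scaling raised the median of all genes in shHMGA2-2 to 0.15, and the 39 genes then gave 22 higher and 14 lower calls in shHMGA2-2 and 26 and 6 in shHMGA2-1. Both comparisons share the shNC libraries, so their values are set side by side below and their likeness is not read as a result.

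Most of these genes were abundant, and abundant genes leaned the other way. Among the 4324 tested genes with at least 10 FPKM in shNC, 13.8% were higher and 29% lower in shHMGA2-1, and 23% were higher and 45.1% lower in shHMGA2-2. The 23 genes of the pathway at that level gave 15 higher and 4 lower in shHMGA2-1, and 11 higher and 10 lower in shHMGA2-2.

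**Figure D2:**
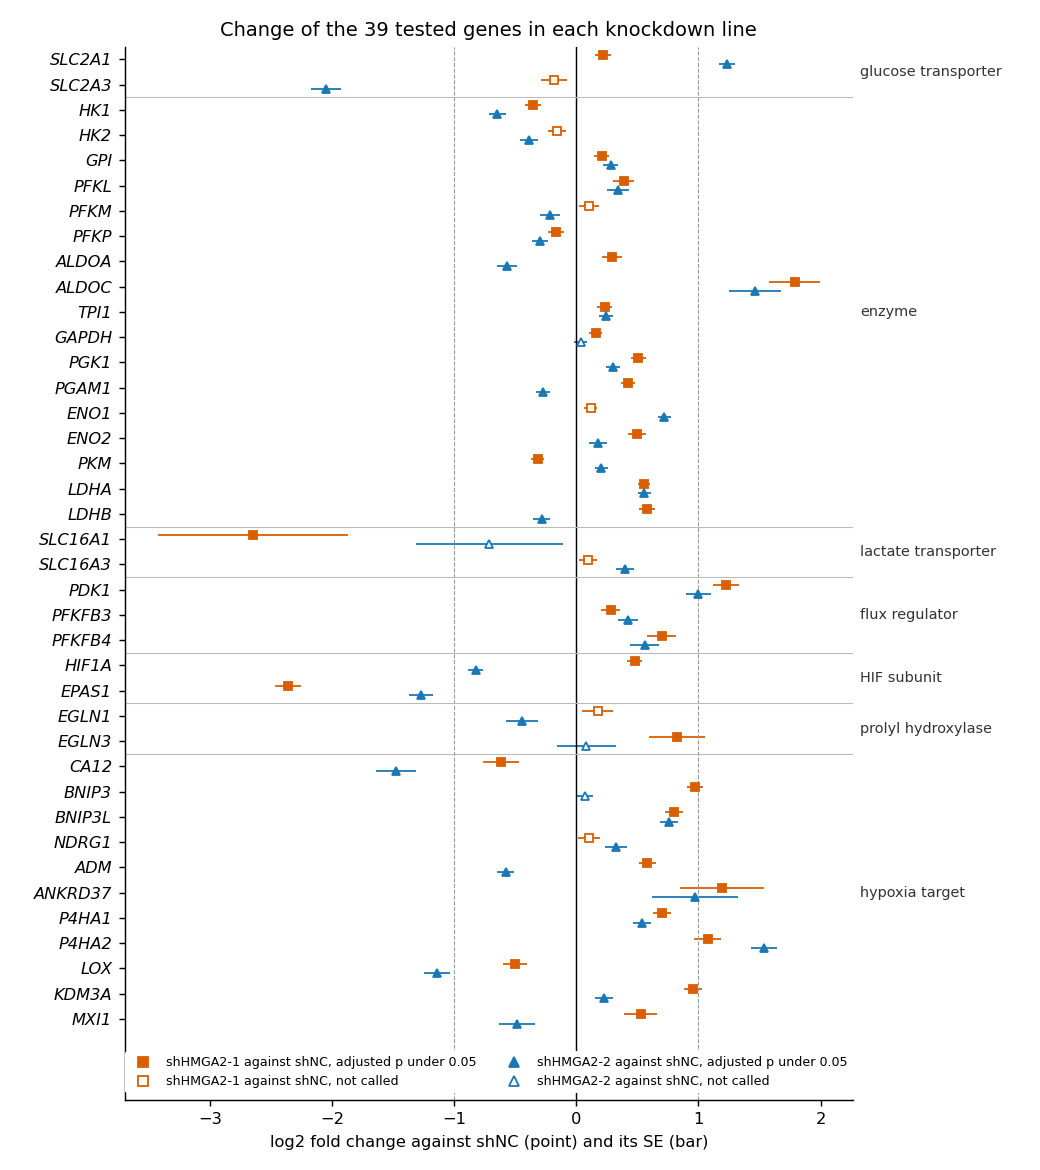
log2 fold change against shNC of the 39 tested genes in shHMGA2-1 (squares) and shHMGA2-2 (triangles), with bars of 1 SE, filled symbols for an adjusted p under 0.05 and dashed lines at 2-fold. ALDOC, PDK1, P4HA1, P4HA2, BNIP3L and LDHA lie to the right in both lines, EPAS1, CA12, LOX and HK1 to the left in both, and HIF1A, ADM, MXI1, ALDOA, PGAM1 and LDHB lie on opposite sides.

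The knockdown lines also differed from each other. Comparing shHMGA2-2 with shHMGA2-1 directly, 7 genes were higher (17.9%, against 24.5% of all tested genes) and 18 were lower (46.2%, against 25.7%) in shHMGA2-2. SLC2A1 and EPAS1 were at least 2-fold higher (5.13%, against 7.83%), and SLC2A3, HIF1A, ADM and MXI1 at least 2-fold lower (10.3%, against 7.27%). The median was -0.22 over the 39 genes and -0.0018 over all tested genes.

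With the 4 knockdown libraries taken as 1 group, where the difference between the lines counts as error, far fewer genes passed. Higher were ALDOC, LDHA, PDK1, PFKFB4, BNIP3L, P4HA1 and P4HA2 (7 of 39, 17.9%, against 2.34% of all tested genes), and lower was EPAS1 alone (2.56%, against 2.92%). ALDOC, PDK1 and P4HA2 were at least 2-fold higher (7.69%, against 1.72%), and EPAS1 at least 2-fold lower (2.56%, against 1.37%). The common biological coefficient of variation was 0.291 in that fit and 0.0583 with 3 groups. None of the 8 edgeR calls was left when either shNC library was taken out and 4 genes of the whole table were called. At an unadjusted p under 0.05, 9 of the 39 were then higher and 2 lower without replicate 1, when 6.05% and 5.77% of all tested genes were. Without replicate 2, 7 were higher and 1 lower, when 5.73% and 5.74% of all tested genes were. DESeq2 on all libraries called 8 higher and 4 lower, where it called 5.63% and 6% of the genes with an adjusted p. The call of EPAS1 was lost under 12 of 15 alternatives. Of the higher calls, that of PFKFB4 was lost under 8, and those of ALDOC and P4HA1 under 6. That of P4HA2 was lost under 4, and those of LDHA, PDK1 and BNIP3L under 3.

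The glucose transporters were GLUT1, the widespread basal transporter encoded by SLC2A1, and GLUT3, a high-affinity transporter best known from neurons and encoded by SLC2A3. SLC2A1 was higher and SLC2A3 lower in shHMGA2-2. In CPM, SLC2A1 (ENSG00000117394) stood at 152 and 147 in shNC, 175 and 172 in shHMGA2-1, then 340 and 363 in shHMGA2-2. Relative to shNC, the log2 fold change was 0.22 (SE 0.07, adjusted p = 0.0140) in shHMGA2-1 and 1.23 (SE 0.07, adjusted p = 5.33e-14) in shHMGA2-2, in edgeR's test. No groups overlapped, shHMGA2-2 stood far above the other lines, and the small difference in shHMGA2-1 was no longer called without either shNC library (adjusted p = 0.0866 and 0.185).

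SLC2A3 (ENSG00000059804) had 36.7 and 32.0 CPM in shNC, 30.3 and 30.2 in shHMGA2-1, compared with only 8.03 and 8.53 in shHMGA2-2. In shHMGA2-2 it was 4.15-fold lower than in shNC (log2 fold change -2.05, SE 0.12, adjusted p = 3.73e-13), whereas in shHMGA2-1 the log2 fold change of -0.18 (SE 0.10) had an adjusted p of 0.197 in edgeR's test. The share of SLC2A1 in the summed FPKM of both transporters was 80.0% ± 1.14 (SD, n = 2) in shNC, 84.0% ± 0.14 in shHMGA2-1 and 97.5% ± 0.0039 in shHMGA2-2. The sum itself was 27.1, 31.3 and 56.7 FPKM.

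The hexokinases, which trap glucose in the cell as glucose 6-phosphate, were lower. HK1, the isoform of most tissues, had 376 and 399 CPM in shNC, 322 and 283 in shHMGA2-1, then 253 and 242 in shHMGA2-2, with no overlap between the lines. The log2 fold change of HK1 was -0.36 (SE 0.07, adjusted p = 0.000215) in shHMGA2-1 and -0.65 (SE 0.07, adjusted p = 1.54e-08) in shHMGA2-2. HK2, the inducible isoform of many tumours and a HIF target, had 165 and 165 CPM in shNC, 141 and 154 in shHMGA2-1, compared with 133 and 120 in shHMGA2-2. It fell in shHMGA2-2 (-0.39, SE 0.07, adjusted p = 7.72e-05), while its adjusted p in shHMGA2-1 was 0.0939 in edgeR's test and 0.00995 without shHMGA2-1 replicate 2. Summed FPKM of HK1 and HK2 was 85.7 ± 2.38 in shNC, 73.2 ± 3.88 in shHMGA2-1 and 63.1 ± 1.91 in shHMGA2-2 (SD, n = 2).

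GPI, which interconverts glucose and fructose 6-phosphate, was modestly higher, by 0.21 on the log2 scale in shHMGA2-1 (adjusted p = 0.0115) and by 0.28 in shHMGA2-2 (adjusted p = 0.000401). Phosphofructokinase, the committed step, is built from 3 related subunits that moved separately. PFKP, the platelet form, was the most abundant at 32.0 ± 0.396 FPKM (SD, n = 2) in shNC, and PFKL, the liver form, the least at 6.74 ± 0.148. PFKL had 61.7 and 63.7 CPM in shNC, 89.3 and 74.6 in shHMGA2-1, then 78.5 and 80.2 in shHMGA2-2, and was higher in both lines (0.39, SE 0.09, adjusted p = 0.00127 and 0.34, SE 0.09, adjusted p = 0.00183).

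PFKP had 257 and 262 CPM in shNC, 241 and 220 in shHMGA2-1, compared with 210 and 213 in shHMGA2-2. PFKM, the muscle form, had 98.7 and 103 CPM in shNC, 115 and 102 in shHMGA2-1, then 81.1 and 93.2 in shHMGA2-2. PFKP was lower in shHMGA2-2 (-0.30, SE 0.07, adjusted p = 0.000438), and its call in shHMGA2-1 (-0.17, adjusted p = 0.0477) was lost under 11 of 15 alternatives, the call in shHMGA2-2 with limma (0.0637). The call of PFKM in shHMGA2-2 (-0.21, adjusted p = 0.0300) was lost under 8 of 15. PFKL made up 12.9% of the summed FPKM of the 3 subunits in shNC, 17.0% in shHMGA2-1 and 18.5% in shHMGA2-2, in a sum of 52.1, 54.0 and 50.1 FPKM.

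Aldolase, which cleaves fructose bisphosphate, shifted between its isozymes. ALDOC (ENSG00000109107), the brain isozyme and a HIF target, had 2.33 and 3.50 CPM in shNC, 11.3 and 8.89 in shHMGA2-1, compared with 8.03 and 8.07 in shHMGA2-2. It was 3.45-fold higher in shHMGA2-1 (log2 fold change 1.79, SE 0.21, adjusted p = 2.21e-07) and 2.75-fold higher in shHMGA2-2 (1.46, SE 0.21, adjusted p = 2.17e-06), in edgeR's test. RSKR, which overlaps ALDOC on the same strand, had log2 fold changes of 0.11 and 0.60, and how reads of overlapping genes were split was not tested.

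ALDOA, the main isozyme, had 93.8 and 97.4 CPM in shNC, 127 and 107 in shHMGA2-1, then 64.0 and 64.9 in shHMGA2-2. ALDOA was higher in shHMGA2-1 (0.29, SE 0.08, adjusted p = 0.00837) and lower in shHMGA2-2 (-0.57, SE 0.09, adjusted p = 3.43e-06), and the groups did not overlap. The call in shHMGA2-1 was lost without either shNC library, without shHMGA2-1 replicate 1 and with limma at a pseudocount of 0.1. The share of ALDOC in aldolase FPKM was 4.28% ± 1.06 in shNC, 11.2% ± 0.442 in shHMGA2-1 and 15.5% ± 0.0779 in shHMGA2-2 (SD, n = 2).

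GAPDH (ENSG00000111640), whose primers are listed among those of the study's RT-qPCR, is often used as a reference gene. It had 2299 and 2253 CPM in shNC, 2631 and 2449 in shHMGA2-1, compared with 2309 and 2355 in shHMGA2-2. The log2 fold change was 0.16 (SE 0.05, adjusted p = 0.0239) in shHMGA2-1, a 1.12-fold difference, and 0.03 (SE 0.05, adjusted p = 0.597) in shHMGA2-2. The shHMGA2-1 libraries lay above both others, by little. That call was lost without shHMGA2-1 replicate 1 (adjusted p = 0.134) and without shNC replicate 1 (0.144) or 2 (0.222), and scaling by library totals called GAPDH higher in shHMGA2-2 too (adjusted p = 0.0119, edgeR).

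The GAPDH primers are printed here to show which transcripts they read.
Forward primer, chr12:6537902-6537923 (GRCh38, plus strand): gtctcctctgacttcaacagcg
Reverse primer, chr12:6538115-6538136 (GRCh38, matching the minus strand): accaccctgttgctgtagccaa
Each primer of 22 bases lay in the coding sequence of all 6 protein-coding GAPDH transcripts that both matched in GENCODE version 29, in neighbouring exons (exons 8 and 9 of ENST00000229239), and the product measured 131 bases. Both primers matched 9 of the 11 annotated GAPDH transcripts, and both also matched 1 other gene, the pseudogene GAPDHP71. No numbered pseudogene held 5% or more of its parent's counts for any of the 18 genes studied here that have one in the table.

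The enzymes that follow the aldolase step leaned upward in shHMGA2-1 and split in shHMGA2-2. TPI1, the triose isomerase, had log2 fold changes of 0.23 and 0.24, and PGK1, which makes the first ATP of the pathway, 0.51 (SE 0.06, adjusted p = 3.74e-07) and 0.30 (SE 0.06, adjusted p = 0.000158). PGK1 had 366 and 346 CPM in shNC, 498 and 514 in shHMGA2-1, then 443 and 433 in shHMGA2-2, so that both knockdown lines lay above shNC. PGAM1, the phosphoglycerate mutase, had 527 and 533 CPM in shNC, 730 and 688 in shHMGA2-1, compared with 435 and 443 in shHMGA2-2. PGAM1 was higher in shHMGA2-1 (0.42, SE 0.06, adjusted p = 3.81e-06) and lower in shHMGA2-2 (-0.27, SE 0.06, adjusted p = 0.000347). PKM, the pyruvate kinase, had 1849 and 1796 CPM in shNC, 1516 and 1413 in shHMGA2-1, then 2096 and 2099 in shHMGA2-2, the reverse order, with log2 fold changes of -0.32 (SE 0.05, adjusted p = 6.34e-05) and 0.20 (SE 0.05, adjusted p = 0.00248). The table counts genes, so the PKM1 and PKM2 splice forms were not analysed here. The calls of TPI1 and GPI in shHMGA2-1 were lost without shNC replicate 1 (adjusted p = 0.0548 and 0.239) and replicate 2 (0.0938 and 0.0518), and that of PKM in shHMGA2-2 without shNC replicate 2 (0.0683).

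ENO1, the main enolase and the second most abundant of the 40 genes, had 1901 and 1849 CPM in shNC, 2081 and 1984 in shHMGA2-1, then 3080 and 3097 in shHMGA2-2. It was 1.65-fold higher in shHMGA2-2 (log2 fold change 0.72, SE 0.05, adjusted p = 1.69e-11), and in shHMGA2-1 its value of 0.12 (SE 0.05) had an adjusted p of 0.0915 in edgeR's test and 0.00591 with library totals as scaling. ENO2, the neuronal enolase and a HIF target, had 89.7 and 89.8 CPM in shNC, 123 and 130 in shHMGA2-1, compared with 102 and 101 in shHMGA2-2. ENO2 was higher in shHMGA2-1 (0.50, SE 0.07, adjusted p = 8.35e-06), and the call in shHMGA2-2 (0.17, adjusted p = 0.0462) was lost under 8 of 15 alternatives. ENO1 made up 94.5%, 92.9% and 96.2% of enolase FPKM in the 3 lines.

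LDHA, the lactate dehydrogenase subunit that favours pyruvate reduction, was higher by like amounts in both knockdown lines. It had 1851 and 1892 CPM in shNC, 2712 and 2786 in shHMGA2-1, then 2788 and 2722 in shHMGA2-2, so both knockdown lines lay above shNC and overlapped each other. The log2 fold changes were 0.55 (SE 0.05, adjusted p = 5.95e-09) and 0.56 (SE 0.05, adjusted p = 1.42e-09), each 1.47-fold, and the difference between the knockdown lines was 0.00 (SE 0.05).

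LDHB, the subunit that favours lactate oxidation, separated the knockdown lines. It had 289 and 266 CPM in shNC, 427 and 401 in shHMGA2-1, compared with 220 and 236 in shHMGA2-2, without overlap. LDHB was higher in shHMGA2-1 (0.58, SE 0.07, adjusted p = 2.12e-07) and lower in shHMGA2-2 (-0.29, SE 0.07, adjusted p = 0.000763), the latter not called with limma (adjusted p = 0.110). LDHA accordingly held 76.9% ± 1.32 of lactate dehydrogenase FPKM in shNC, 76.6% ± 1.16 in shHMGA2-1 and 85.7% ± 0.822 in shHMGA2-2 (SD, n = 2). Over all 17 enzymes the summed FPKM, without TMM scaling, was 2487 ± 23.7, 3025 ± 144 and 3116 ± 65.1 (SD, n = 2). In shHMGA2-1, 11 enzymes were called higher (64.7%, against 15.8% of all tested genes) and 3 lower (17.6%, against 17.7%). In shHMGA2-2, 9 were higher (52.9%, against 29.5%) and 7 lower (41.2%, against 29.2%).

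**Figure D3:**
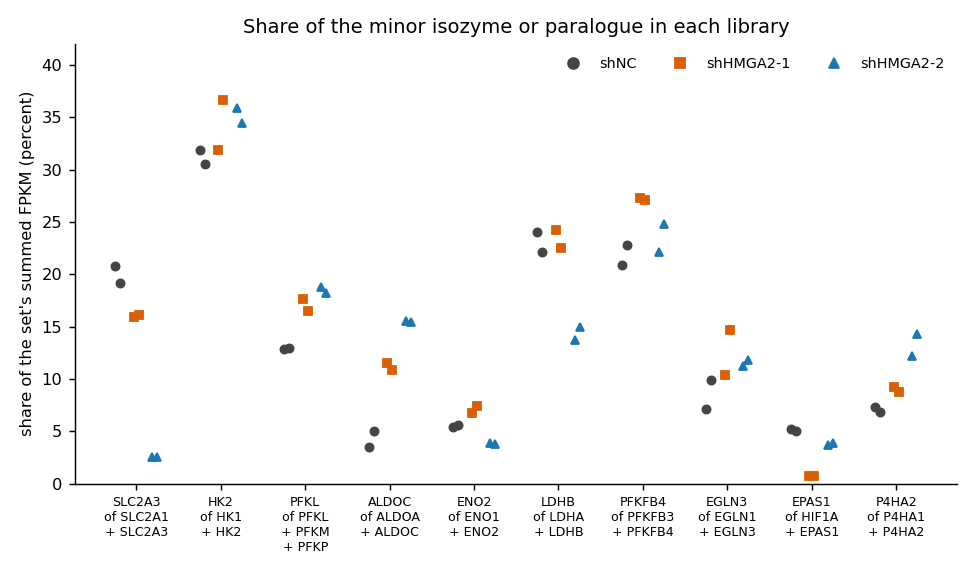
Share (percent of the summed FPKM of the set named under the axis) of 10 minor isozymes or paralogues in each library, with circles for shNC, squares for shHMGA2-1 and triangles for shHMGA2-2. SLC2A3 is at 20.0% in shNC and 2.5% in shHMGA2-2, EPAS1 at 5.12% in shNC and 0.75% in shHMGA2-1, and ALDOC is higher in both knockdown lines than in shNC.

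Of the lactate transporters, SLC16A3 dominated and was higher in shHMGA2-2. SLC16A3, which encodes the export transporter MCT4, made up more than 99% of the summed FPKM of both lactate transporters in every library. It had 224 and 216 CPM in shNC, 250 and 219 in shHMGA2-1, then 270 and 308 in shHMGA2-2, and was higher in shHMGA2-2 (log2 fold change 0.40, SE 0.07, adjusted p = 6.85e-05), whereas the adjusted p in shHMGA2-1 was 0.374, or 0.0295 without shHMGA2-1 replicate 2. SLC16A1, which encodes MCT1, was counted 10 and 15 times in the shNC libraries, 2 and 2 in shHMGA2-1, compared with 12 and 4 in shHMGA2-2. The summed counts per depth were 6.31 times higher in shNC than in shHMGA2-1, with an exact 95% interval of 2.18 to 25 that covers counting error only. The edgeR call of SLC16A1 in shHMGA2-1 (adjusted p = 0.0105) was lost with DESeq2 (0.0930) and without shNC replicate 2 (0.0937).

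All 3 flux regulators were higher in both knockdown lines, where 15.8% of all tested genes were called higher in shHMGA2-1 and 29.5% in shHMGA2-2. PDK1 (ENSG00000152256) phosphorylates pyruvate dehydrogenase and so inhibits it. The gene had 27.5 and 24.1 CPM in shNC, 56.9 and 63.6 in shHMGA2-1, then 55.2 and 47.9 in shHMGA2-2. It was 2.34-fold higher in shHMGA2-1 (log2 fold change 1.22, SE 0.10, adjusted p = 1.11e-09) and 2.00-fold higher in shHMGA2-2 (1.00, SE 0.10, adjusted p = 1.14e-08), the latter just under the 2-fold limit before rounding. Its antisense neighbour PDK1-AS1 was counted 33 and 45 times in the shNC libraries, 98 and 98 in shHMGA2-1, compared with 42 and 40 in shHMGA2-2, and with no strand setting stated, reads of the pair cannot be told apart.

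PFKFB3 and PFKFB4 make fructose 2,6-bisphosphate, the activator of phosphofructokinase. PFKFB3 had 60.7 and 57.0 CPM in shNC, 73.0 and 69.9 in shHMGA2-1, then 78.6 and 79.0 in shHMGA2-2, with log2 fold changes of 0.28 (SE 0.08, adjusted p = 0.00995) and 0.42 (SE 0.08, adjusted p = 9.37e-05). PFKFB4 had 16.0 and 16.8 CPM in shNC, 27.3 and 25.9 in shHMGA2-1, compared with 22.3 and 26.0 in shHMGA2-2, with 0.70 (SE 0.12, adjusted p = 4.04e-05) and 0.56 (SE 0.12, adjusted p = 0.000234). Neither overlapped shNC in either line, and the shHMGA2-1 call of PFKFB3 was lost without shNC replicate 1 (0.0534) or 2 (0.164).

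The HIF alpha subunits parted. HIF1A (ENSG00000100644, chromosome 14, 61695513 to 61748259 in the deposited table) had 832 and 851 CPM in shNC, 1104 and 1241 in shHMGA2-1, then 477 and 475 in shHMGA2-2. It was 1.39-fold higher in shHMGA2-1 (log2 fold change 0.48, SE 0.06, adjusted p = 9.48e-07) and 1.77-fold lower in shHMGA2-2 (-0.82, SE 0.06, adjusted p = 2.58e-11), and between the knockdown lines it differed by -1.30 (SE 0.06, adjusted p = 7.32e-15). These calls held under all 15 alternatives. With all knockdown libraries as 1 group its log2 fold change was -0.03 (SE 0.44), with the lines on opposite sides of shNC.

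EPAS1 (ENSG00000116016, chromosome 2, 46293667 to 46386697) was lower in both lines and lowest in the line where HIF1A was highest. It had 64.6 and 63.9 CPM in shNC, 11.9 and 13.1 in shHMGA2-1, compared with 26.1 and 27.1 in shHMGA2-2. That is 5.13-fold lower in shHMGA2-1 (log2 fold change -2.36, SE 0.10, adjusted p = 1.10e-14) and 2.42-fold lower in shHMGA2-2 (-1.27, SE 0.10, adjusted p = 3.03e-11). EPAS1 made up 5.12% of HIF alpha FPKM in shNC, 0.75% in shHMGA2-1 and 3.80% in shHMGA2-2, so HIF1A was the main HIF alpha transcript of all 3 lines.

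A long antisense gene lies over HIF1A. HIF1A-AS3 was counted 485 and 435 times in the shNC libraries, 212 and 243 in shHMGA2-1, then 51 and 59 in shHMGA2-2, with log2 fold changes of -1.09 and -3.14. Its order across the lines is thus not that of HIF1A, which was highest in shHMGA2-1. Without a stated strand setting, reads of the overlap cannot be assigned to either gene with certainty, and what this does to HIF1A was not tested.

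The prolyl hydroxylases, themselves HIF targets, were low. EGLN1 (PHD2), the main oxygen sensor, had 28.6 and 21.0 CPM in shNC, 29.9 and 26.1 in shHMGA2-1, compared with 17.8 and 18.7 in shHMGA2-2. EGLN1 was lower in shHMGA2-2 (-0.44, SE 0.13, adjusted p = 0.00526), a call lost without shNC replicate 1 (0.262) or shHMGA2-2 replicate 1 (0.0682) and with limma (0.175), and the shNC libraries lay farther apart than those of either knockdown line. EGLN3 (PHD3) had 3.01 and 3.14 CPM in shNC, 4.72 and 6.18 in shHMGA2-1, then 3.07 and 3.44 in shHMGA2-2. EGLN3 was higher in shHMGA2-1 (0.82, SE 0.23, adjusted p = 0.00673), a call lost under 5 of 14 alternatives, among them DESeq2 (0.0977) and leaving out shNC replicate 1 (0.0564) or shHMGA2-1 replicate 2 (0.0870).

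Of the 11 hypoxia-induced targets tested, 8 were higher (72.7%, against 15.8% of all tested genes) and 2 lower (18.2%, against 17.7%) in shHMGA2-1. In shHMGA2-2, 6 were higher (54.5%, against 29.5%) and 4 lower (36.4%, against 29.2%). Their median log2 fold change was 0.70 in shHMGA2-1 and 0.23 in shHMGA2-2, beside 0.01 and 0.03 over all tested genes. Their summed FPKM, CA9 included and without TMM scaling, was 186 ± 2.99 in shNC, 314 ± 6.11 in shHMGA2-1 and 213 ± 2.02 in shHMGA2-2 (SD, n = 2).

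One set of targets had the order of HIF1A, highest in shHMGA2-1. ADM, which encodes the vasodilator adrenomedullin and was the most abundant target at 52.9 ± 0.976 FPKM (SD, n = 2) in shNC, had 127 and 130 CPM in shNC, 199 and 186 in shHMGA2-1, compared with 84.0 and 87.7 in shHMGA2-2. It was higher in shHMGA2-1 (0.58, SE 0.07, adjusted p = 4.66e-07) and lower in shHMGA2-2 (-0.58, SE 0.07, adjusted p = 2.29e-07). MXI1, a MYC antagonist, had 13 and 17.9 CPM in shNC, 22.3 and 22.1 in shHMGA2-1, then 11.6 and 10.5 in shHMGA2-2. MXI1 had log2 fold changes of 0.53 (SE 0.14, adjusted p = 0.00388) and -0.49 (SE 0.15, adjusted p = 0.00642), the first lost without shNC replicate 1 (0.176) and the second without shNC replicate 2 (0.271) or shHMGA2-2 replicate 2 (0.0838) and with limma (0.143).

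BNIP3, a mitophagy receptor, and KDM3A, a histone H3 lysine demethylase, were higher in shHMGA2-1 than in both other lines. BNIP3 had 211 and 216 CPM in shNC, 393 and 443 in shHMGA2-1, compared with 228 and 220 in shHMGA2-2. KDM3A had 94.4 and 90.7 CPM in shNC, 183 and 176 in shHMGA2-1, then 107 and 109 in shHMGA2-2. In shHMGA2-1 the log2 fold changes were 0.97 (SE 0.07, adjusted p = 4.20e-11) for BNIP3 and 0.95 (SE 0.07, adjusted p = 1.31e-10) for KDM3A. In shHMGA2-2 they were 0.07 (SE 0.07, adjusted p = 0.384) and 0.23 (SE 0.07, adjusted p = 0.00918), and the direct difference between the knockdown lines was -0.90 (SE 0.07) for BNIP3 and -0.73 (SE 0.07) for KDM3A. BNIP3 was called higher in shHMGA2-2 too with upper-quartile scaling (0.0183), library totals (0.0125) or limma (0.0391), and the call of KDM3A there was lost without shNC replicate 1 (0.0550) or 2 (0.123) or shHMGA2-2 replicate 2 (0.0774).

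A second set was higher in both lines. BNIP3L (NIX), the paralogue of BNIP3, had 114 and 110 CPM in shNC, 183 and 207 in shHMGA2-1, compared with 194 and 186 in shHMGA2-2, with log2 fold changes of 0.80 (SE 0.07, adjusted p = 4.59e-09) and 0.76 (SE 0.07, adjusted p = 2.92e-09). The difference between the knockdown lines was -0.04 (SE 0.07), where BNIP3 differed by -0.90. ANKRD37, an ankyrin repeat protein induced by HIF-1, was higher from a low level, with 1.17 and 1.29 CPM in shNC, 2.48 and 3.18 in shHMGA2-1, then 3.01 and 1.83 in shHMGA2-2. Its calls (1.20, adjusted p = 0.00873 and 0.97, adjusted p = 0.0202) were lost with DESeq2 (0.0841 and 0.140) and without shNC replicate 1 (0.0652 and 0.0940), that in shHMGA2-1 also without shHMGA2-1 replicate 2 (0.0612) and that in shHMGA2-2 also without shNC replicate 2 (0.0579) or shHMGA2-2 replicate 1 (0.269).

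Collagen prolyl 4-hydroxylase uses oxygen to hydroxylate collagen, and its alpha subunits P4HA1 and P4HA2 were higher. P4HA1 had 76.0 and 81.2 CPM in shNC, 128 and 128 in shHMGA2-1, compared with 113 and 114 in shHMGA2-2 (0.70, SE 0.07, adjusted p = 4.93e-08 and 0.53, SE 0.07, adjusted p = 1.15e-06). P4HA2 (ENSG00000072682) had 19.8 and 19.5 CPM in shNC, 42.4 and 40.4 in shHMGA2-1, then 51.5 and 62.5 in shHMGA2-2 (1.07, SE 0.11, adjusted p = 2.53e-08 and 1.54, SE 0.11, adjusted p = 7.20e-12). P4HA2 was the only target at least 2-fold higher in both lines, and its share of the summed FPKM of P4HA1 and P4HA2 was 7.10%, 9.0% and 13.3% in the 3 lines.

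LOX and CA12 fell in both lines. LOX, the lysyl oxidase that crosslinks collagen, had 80.8 and 82.1 CPM in shNC, 49.3 and 65.7 in shHMGA2-1, compared with 37.2 and 36.6 in shHMGA2-2, with log2 fold changes of -0.50 (SE 0.10, adjusted p = 0.000368) and -1.14 (SE 0.10, adjusted p = 1.13e-09). SRFBP1, on the opposite strand over LOX, had log2 fold changes of -0.44 and -0.64, and with no strand setting stated, reads of the overlap cannot be told apart. The same holds for UFSP2, on the opposite strand over ANKRD37, and PDLIM4, over P4HA2. In all, genes overlapping 11 of the 40 held at least 5% of that gene's counts. PFKM, SLC16A1, SLC16A3, EGLN3, CA9 and BNIP3L are also among these 11, and how reads there were split was not tested. CA12, a membrane carbonic anhydrase, had 14.2 and 13.8 CPM in shNC, 9.27 and 9.0 in shHMGA2-1, then 5.61 and 4.47 in shHMGA2-2. Its log2 fold changes in edgeR's test were -0.62 (SE 0.15, adjusted p = 0.00226) and -1.48 (SE 0.16, adjusted p = 2.66e-08). For LOX and CA12 the shHMGA2-1 call was lost with limma at a pseudocount of 0.1 (0.0525 and 0.0637). NDRG1, a stress-responsive gene, had 56.5 and 59.1 CPM in shNC, 66.8 and 57.1 in shHMGA2-1, then 73.4 and 71.3 in shHMGA2-2, so that shHMGA2-1 overlapped shNC. NDRG1 was higher in shHMGA2-2 (0.32, SE 0.09, adjusted p = 0.00285, or 0.0652 without shNC replicate 1), and in shHMGA2-1 it had a log2 fold change of 0.10 (SE 0.09, adjusted p = 0.418, or 0.0416 without shHMGA2-1 replicate 2).

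**Figure D4:**
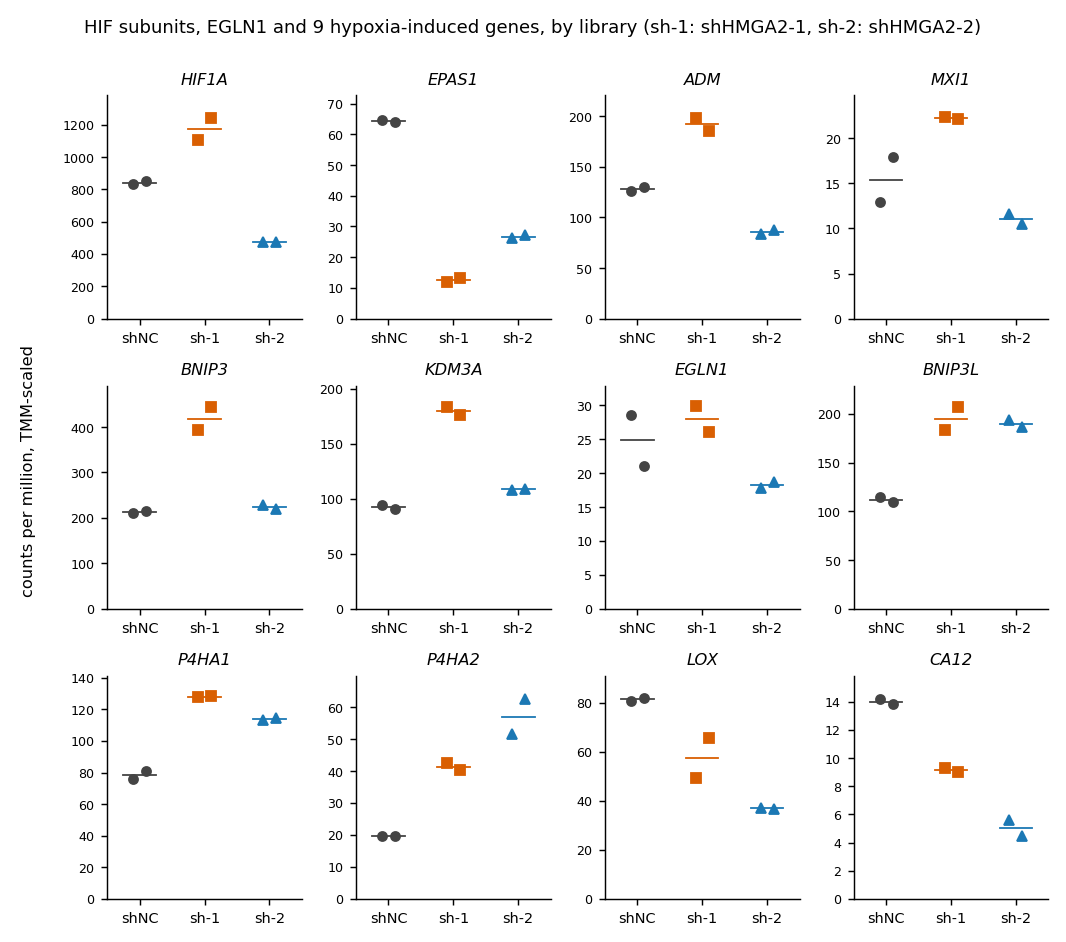
TMM-scaled CPM in each library (points) with the line mean (bar) for HIF1A, EPAS1, EGLN1 and 9 hypoxia-induced genes, each axis starting at 0. HIF1A, ADM and MXI1 are highest in shHMGA2-1 and lowest in shHMGA2-2, BNIP3 and KDM3A stand high in shHMGA2-1, BNIP3L, P4HA1 and P4HA2 are high in both knockdown lines, and LOX and CA12 step down.

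Genes around these pathways were called in both directions. Of 30 tested genes of glycolysis and its branches outside the 40, 7 were higher (23.3%, against 15.8% of all tested genes) and 10 lower (33.3%, against 17.7%) in shHMGA2-1. In shHMGA2-2, 12 were higher and 12 lower (40% each, against 29.5% and 29.2%). The median log2 fold changes were 0.02 and -0.03, beside 0.01 and 0.03 over all tested genes. Among the genes past 2-fold in the same direction in both lines were PDK3 and PDK4. PDK3 had 7.86 and 8.11 CPM in shNC, 23.1 and 22.5 in shHMGA2-1, compared with 37.2 and 37.0 in shHMGA2-2 (log2 fold changes 1.51 and 2.21, adjusted p = 6.14e-10 and 4.97e-14). PDK4 had 0.799 and 1.35, 2.13 and 2.29, and 6.26 and 7.39 CPM (1.04 and 2.66, adjusted p = 0.0168 and 1.25e-08). With PDK2 (0.74 and 1.10), named after its values were seen, all 4 PDK genes were called higher in both lines, where 15.8% and 29.5% of all tested genes were.

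The pentose phosphate pathway branches off from glycolysis and returns carbon to it through the transaldolase TALDO1 and the transketolase TKT, described here after their values were seen. On the log2 scale, TALDO1 differed from shNC by -0.55 in shHMGA2-1 and by -0.81 in shHMGA2-2 and TKT by -0.42 and -0.52, each called lower in both lines by edgeR. PGD, the phosphogluconate dehydrogenase, was lower in shHMGA2-1 (-0.72, adjusted p = 6.70e-09), and its log2 fold change in shHMGA2-2 was -0.06 (adjusted p = 0.467).

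**Figure D5:**
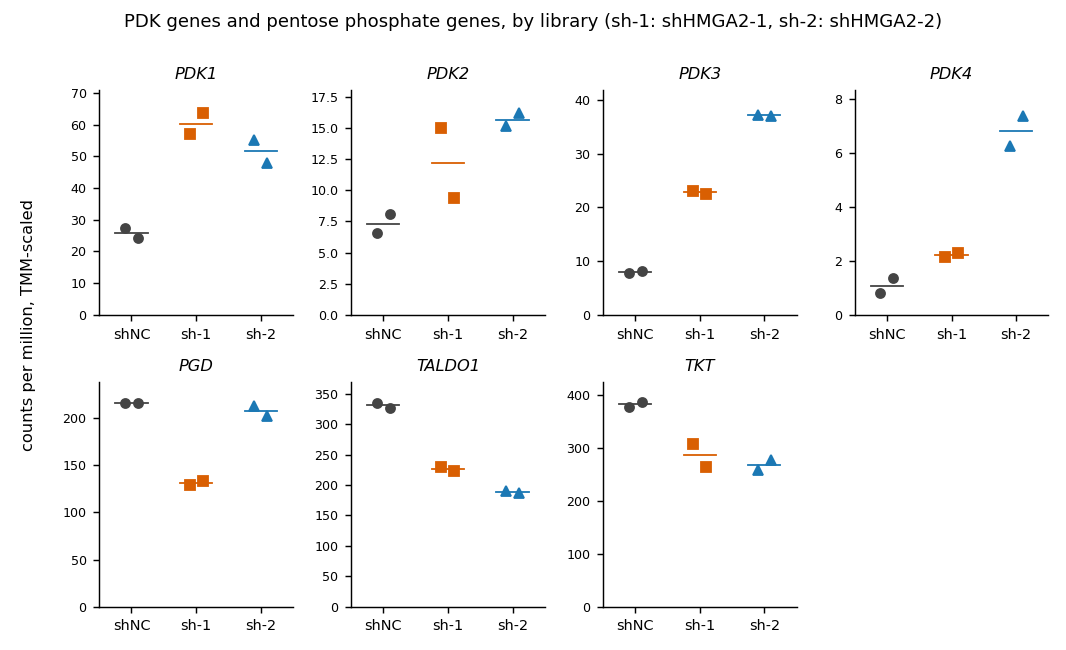
TMM-scaled CPM in each library (points) with the line mean (bar) for the 4 PDK genes and 3 pentose phosphate genes, each axis starting at 0. The PDK genes are lowest in shNC, TALDO1 and TKT are highest in shNC, and PGD is low in shHMGA2-1 alone.

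Of 28 other tested genes of the HIF pathway, 14 were higher (50%, against 15.8% of all tested genes) and 5 lower (17.9%, against 17.7%) in shHMGA2-1. In shHMGA2-2, 16 were higher (57.1%, against 29.5%) and 6 lower (21.4%, against 29.2%). The median log2 fold changes were 0.30 and 0.35. ANGPTL4, a secreted inhibitor of lipoprotein lipase, changed most of the genes named by the rule. It had 1.23 and 1.05 CPM in shNC, 13.3 and 10.1 in shHMGA2-1, compared with 11.2 and 11.1 in shHMGA2-2, which is 10.2-fold and 9.73-fold higher (log2 fold changes 3.36 and 3.28, SE 0.23 each, adjusted p = 3.06e-11 and 9.97e-12, edgeR). VLDLR, a lipoprotein receptor, had log2 fold changes of 2.07 and 1.69, and BHLHE41 (DEC2), a transcriptional repressor, had log2 fold changes of -1.70 and -1.98.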

How the data were processed

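Messenger RNA was sequenced in 6 libraries, grouped by their titles. The authors deposited 1 table of unnormalized counts per gene and library, with FPKM beside them. Per the submitters' processing notes, HISAT2 2.2.1, HTSeq 0.6.1 and GRCh38.p13 were used, and no strand setting was given. FPKM recomputed from the deposited counts matched for 100% of values. Annotation terms in the table were not used.

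Counts were analysed in edgeR 4.0.16 (R 4.3.3) with TMM scaling, filterByExpr by line, quasi-likelihood tests and Benjamini-Hochberg adjustment over 16110 genes. A model of 3 lines gave the line comparisons, and a model with 1 shHMGA2 group the pooled one. SE is that of the fitted log2 fold change. A count of 3 (0.175 to 0.182 CPM) is the limit that a count of 0 allows, for counting error only. Alternatives were other scalings, DESeq2 1.42.0, other filters, limma 3.58.1 on log2(FPKM + 1) and log2(FPKM + 0.1), the replicate number as a block, and leaving out each library.

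Genes, lists and tests were chosen with earlier results of these data known. Values per library are given for GAPDH, the HIF subunits, isozyme sets, the most abundant gene of each role and genes past 2-fold in a line comparison. Of the other pathway lists, genes past 2-fold in the same direction in both lines were named, except for a gene that is not reported here. Values of other genes, PDK2, the pentose phosphate genes and the choice of promoters came after their values were seen. Promoters are from RefSeq, and transcripts from GENCODE version 29.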

Additional observations from a re-analysis of the deposited data

Results flagged for a closer look

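The effects of the 2 shRNA lines differed for 25 of the 39 tested genes in the direct edgeR comparison, against 24.5% higher and 25.7% lower over all tested genes. Values are log2 differences, shHMGA2-2 minus shHMGA2-1. Higher in shHMGA2-2 were SLC2A1 (1.02), EPAS1 (1.09), ENO1 (0.60), PKM (0.52), P4HA2 (0.46), SLC16A3 (0.30) and NDRG1 (0.22).

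Of the enzymes and transporters, SLC2A3 (-1.87), LDHB (-0.86), ALDOA (-0.86), PGAM1 (-0.69), ENO2 (-0.32), PFKM (-0.32), HK1 (-0.29), HK2 (-0.23) and PGK1 (-0.21) were lower in shHMGA2-2. Of the HIF system, HIF1A (-1.30), ADM (-1.16), MXI1 (-1.01), BNIP3 (-0.90), CA12 (-0.86), EGLN3 (-0.74), KDM3A (-0.73), LOX (-0.64) and EGLN1 (-0.62) were lower. The difference between 2 lines, each from 1 clone, and the difference between 2 shRNAs cannot be told apart.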

How the results depend on the processing

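Of 2380 fold changes of single genes under alternatives, 2144 kept direction and side of the threshold, 154 lost a call, 34 gained one and 48 changed direction, none with a call and none above 0.16 in size. Depth limited CA9 and SLC16A1, and each line had 2 libraries. The cause of the changes listed here was not tested.

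Against shNC, the 25 higher calls in shHMGA2-1 numbered 16 to 26 with a library left out (16 without shNC replicate 1), and the 7 lower calls were 3 with limma at a pseudocount of 0.1. The 4 genes at least 2-fold higher were 2 with limma at a pseudocount of 1 and 3 to 6 with a library left out. The 2 at least 2-fold lower were 1 with DESeq2, with a mean FPKM of at least 1, with limma at either pseudocount and without shNC replicate 2 (1 to 2 over left-out libraries). In shHMGA2-2, the 3 genes at least 2-fold higher were 5 with upper quartile scaling, with library totals and without shHMGA2-2 replicate 2 (3 to 5 over left-out libraries), and the 4 at least 2-fold lower were 1 with limma at a pseudocount of 1. Between the knockdown lines, the 2 genes at least 2-fold higher were 1 with that pseudocount. In the limma fits and with a mean FPKM of at least 1, SLC16A1 was too low to be tested, so the count of 1 there is not a lost call. Shares over all genes at 2-fold were not computed for any alternative, so these 2-fold counts have no background beside them. With limma at a pseudocount of 0.1, 1519 of 14324 genes were lower in shHMGA2-1, beside 2844 of 16110 with edgeR. Over all genes, the 5390 calls in shHMGA2-1 became 3563 and 3506 with limma, 3432 without shNC replicate 1 and 3284 without shNC replicate 2.

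With 1 shHMGA2 group, the 7 higher calls were 0 to 6 with a library left out: 0 without shNC replicate 1 or 2, 4 without replicate 1 of shHMGA2-1, and 3 and 4 without replicates 1 and 2 of shHMGA2-2. Those at least 2-fold higher were 0 to 3. The lower call of EPAS1 was 4 genes with DESeq2 (2 at least 2-fold), 0 with upper quartile scaling, library totals, a mean FPKM of at least 1 and limma, and 0 to 1 with a library left out (0 at least 2-fold). At an unadjusted p under 0.05, 4 to 5 genes were lower under those scalings, limma and that filter. Of all genes with a p, 9.02% to 13.5% were lower in these fits. HMGA2 was at -1.67 with limma at a pseudocount of 0.1 and -1.94 to -1.55 with a library left out, without a call in 5 of these 6 fits. The 848 calls over all genes became 1982 with DESeq2, 4 without either shNC library, 466 without replicate 1 of shHMGA2-1, and 315 and 356 without replicates 1 and 2 of shHMGA2-2.

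Direction changed for small values. Under upper quartile scaling and library totals, the difference between the knockdown lines was 0.0039 and 0.0075 for PFKL and 0.012 and 0.016 for BNIP3L, and the pooled fold change 0.039 and 0.042 for PFKM, 0.0062 and 0.0085 for ALDOA, 0.061 and 0.064 for PKM, and 0.048 and 0.049 for HIF1A. Under limma at pseudocounts of 1 and 0.1, these were 0.0125 and 0.0143 for PFKL, 0.0179 and 0.0183 for BNIP3L, 0.031 and 0.033 for PFKM, and 0.0351 and 0.0351 for PKM. LDHA differed between the knockdown lines by -0.0033 with no filter. With a library left out, differences between the knockdown lines ranged from -0.17 to 0.089 for PFKL, -0.023 to 0.051 for TPI1, -0.016 to 0.023 for LDHA, -0.13 to 0.053 for BNIP3L and -0.62 to 0.088 for ANKRD37. Pooled fold changes ranged from -0.13 to 0.032 for PFKM, -0.28 to 0.058 for ALDOA, -0.021 to 0.23 for PGAM1, -0.13 to 0.063 for PKM, -0.30 to 0.16 for HIF1A, -0.31 to 0.13 for EGLN1, -0.11 to 0.29 for ADM and -0.11 to 0.36 for MXI1. Fold changes in shHMGA2-1 ranged from -0.0068 to 0.19 for SLC16A3, -0.032 to 0.41 for EGLN1 and -0.017 to 0.21 for NDRG1, and that of EGLN3 in shHMGA2-2 from -0.0091 to 0.16.

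Nothing in the labels pairs libraries by replicate number. Deviations of same-numbered libraries from their line means correlated at -0.022, 0.001 and -0.144 between lines. With 2 libraries per line, these values cannot decide whether same-numbered libraries shared a batch. With the replicate number as a block, edgeR called 4839, 9066 and 7609 genes in the line comparisons and 152 in the pooled one. There, 0 of the 39 genes were higher (against 0.447% of all tested genes) and 0 lower (against 0.497%), also at least 2-fold. At an unadjusted p under 0.05, 12 were higher (against 9.58%) and 4 lower (against 9.17%) in that edgeR fit, and HMGA2 stood at -1.72 (adjusted p = 0.114). In the line comparisons, PFKP and GAPDH in shHMGA2-1, ENO2 in shHMGA2-2 and NDRG1 between the knockdown lines lost their calls under the block.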
